A study of Bos taurus and Bos grunniens and Bubalus bubalis with 15 samples.

Results

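Growth hormone acts on muscle through its receptor, GHR, a cell surface protein that has no enzyme of its own and works through the kinase JAK2 bound to its inner part. JAK2 phosphorylates the transcription factors STAT5A and STAT5B, which then pair, enter the nucleus and switch on genes such as IGF1, CISH and SOCS2, the last of which feed back to damp the receptor. In mice, loss of STAT5 in skeletal muscle reduces postnatal growth and muscle mass. The members described here are the probe sets (groups of short probes for 1 transcript on an Affymetrix bovine array) that the platform annotation names as GHR, STAT5A or STAT5B. There were 12 of them among the 24016 probe sets of the table, 11 for GHR and 1 for STAT5B, or 2 of the 9155 genes that the annotation names by a probe set of their own. The GHR probe sets are called GHR-a to GHR-k here, from the brightest to the dimmest. None was listed under STAT5A, so that gene was not analysed here. These genes were selected on earlier results from the same intensities, so their differences are given as a description with no p-value. Where a member is said to pass the fit or not, this only places it in the whole table and is no independent test.

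The arrays measured total RNA of longissimus dorsi, the long back muscle, from animals slaughtered at 36 months of age. There were 3 Guangxi buffalo (Bubalus bubalis), 3 Qinghai yak (Bos grunniens) and 9 Qinchuan cattle (Bos taurus) of 1 breed: 3 females, 3 castrated males and 3 intact males. The cattle were of similar age and background and were reared alike. The labels call the samples biological replicates, and give no sex for yak or buffalo. Each group has 3 arrays, and between 2 groups an exact two-sided permutation test at that size cannot go below 0.1.

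All probes were designed on cattle sequence. A lower signal in yak or buffalo can therefore come from fewer transcripts or from a transcript that pairs less well with the probe, and these cannot be told apart here. The median of an array was 6.71 at the lowest and 6.81 at the highest, as log2(intensity + 16), and the lowest correlation between arrays of a group was 0.952. All 9 measured markers of muscle fibres, including ACTA1, CKM and MYH7, were above the 99th percentile of mean brightness. The 10 measured macrophage markers summed to between 976 and 1386 intensity units in buffalo, 1483 and 1595 in yak, 1232 and 2204 in females, 2195 and 3720 in castrated males, and 5709 and 28823 in intact males. The 7 fibroblast markers summed to 3708 to 5958 units in buffalo, 4268 to 5546 in yak, 8261 to 9869 in females, 10639 to 11371 in castrated males and 30470 to 39672 in intact males. Intact male 1 held the highest sum on both lists.

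Of the probe sets named as GHR alone, GHR-a was the brightest, at the 88.2th percentile of all probe sets. It is 1 of the 2 member probe sets that the annotation pairs with a RefSeq mRNA. In females it read 773, 755 and 873 intensity units. In castrated males it read 536, 404 and 463 units, and in intact males 189, 430 and 536 units. Every female array lay above every male array, while the castrated and intact males overlapped and intact male 1 was the lowest of all 15 arrays. Buffalo read 528, 411 and 496 units, and yak read 866, 624 and 644 units. The yak arrays stood above all buffalo arrays and overlapped the females.

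Averaged by group, this GHR signal was 479 ± 60.3 units in buffalo, 711 ± 134 in yak, 800 ± 63.5 in females, 468 ± 65.9 in castrated males and 385 ± 178 in intact males (SD, n = 3 each). By mean the order ran from females through yak, buffalo and castrated males to intact males. Of the neighbours in that order, yak and buffalo did not overlap, while females and yak, buffalo and castrated males, and castrated and intact males did. The spread was widest in intact males, with a coefficient of variation of 46.3%, and narrowest in females, at 7.94%.

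The female minus intact male difference of this GHR probe set was 1.14 on the log2 scale (SE 0.32), and the female minus castrated male difference was 0.76 (SE 0.32). The castrated minus intact male difference was 0.38 (SE 0.32). None of the 3 passed the fit over all probe sets at an adjusted p of 0.05. Intact male 1 weighed on the castration difference, which was -0.05 without that array, and on the female minus intact male difference, which was 0.72 without it. The female minus intact male difference passed the fit only when intact male 3 was left out, at 1.43. Intact male 1, the array with the least GHR, also had the highest macrophage sum, 28823 units. The part of macrophages, of fibre content and of RNA quality in the GHR difference was not tested. In bulk muscle, fewer cells of a type and less RNA per cell cannot be told apart.

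**Figure D1:**
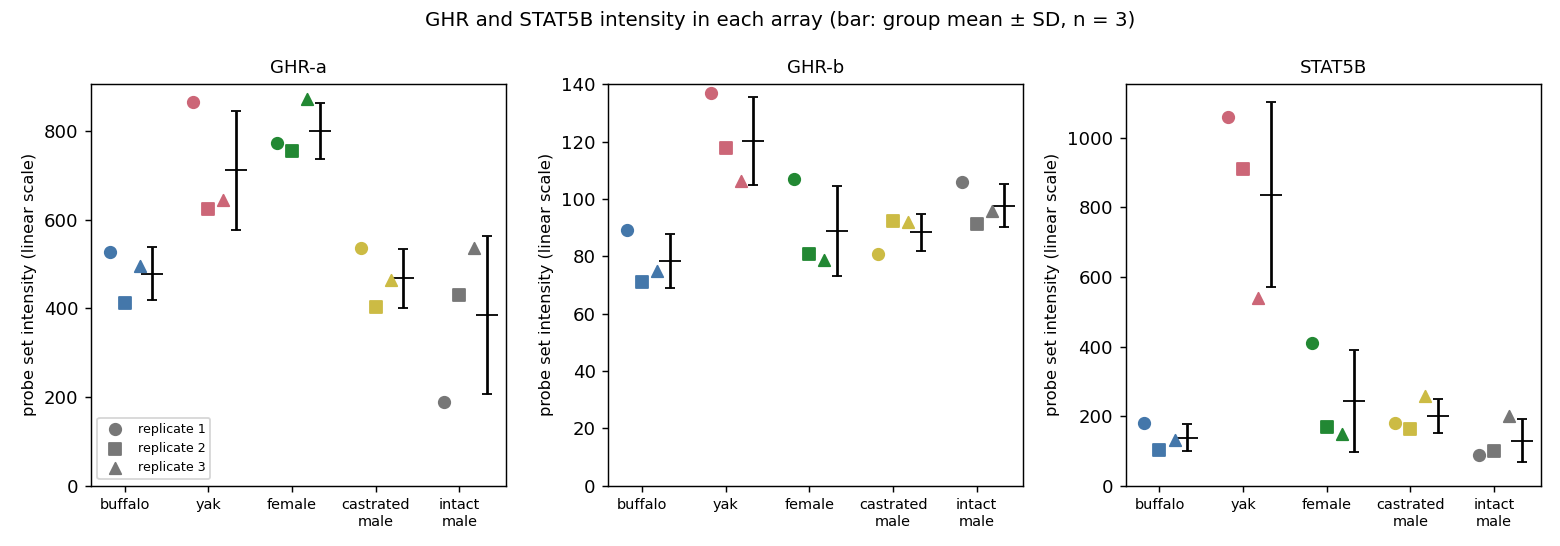
Intensity (linear axis from 0) of the 3 member probe sets that were bright enough to fit, with 1 point per array, a marker shape per replicate number and a bar for the group mean ± SD (n = 3). Every GHR-a value of females is above every male one, and the 3 yak STAT5B values, 541 to 1060 units, are above the other 12 arrays.

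Between species, the same GHR probe set differed by 0.46 (SE 0.23) between yak and cattle and by -0.09 (SE 0.23) between buffalo and cattle on the log2 scale, where cattle is the mean of the 3 cattle groups. The buffalo minus yak difference was -0.55 (SE 0.28). None of the 3 passed the fit. With intact males left out of the cattle mean, the yak minus cattle difference was 0.20 and the buffalo minus cattle difference -0.35, and neither passed. The direction of the buffalo minus cattle value was not settled: it was 0.13 after quantile normalisation, 0.00 without intact male 3 and 0.01 without buffalo 2.

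The second GHR probe set past the filter on brightness, GHR-b, was at the 50.1th percentile. It read 89.1, 71.2 and 74.8 units in buffalo and 137, 118 and 106 units in yak. Females read 107, 81.0 and 78.6 units, castrated males 81.0, 92.4 and 91.8 units, and intact males 106, 91.3 and 95.8 units. Yak lay above all buffalo arrays, while the 3 cattle groups overlapped one another and the highest female array exceeded the lowest yak array. The yak minus cattle difference was 0.34 (SE 0.10) and the buffalo minus yak difference was -0.53 (SE 0.12) on the log2 scale, and both passed the fit. The yak minus cattle call was lost without yak 1, at 0.25, and without yak 2, at 0.35. Among cattle this probe set did not follow the brighter one: its female minus intact male difference was -0.12 (SE 0.12), against 1.14 for GHR-a.

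The other 9 GHR probe sets were dim, with mean brightness between the 2.61th and the 28.1th percentile, under the 40th percentile used as the filter. GHR-j read 27.9, 42.4 and 42.9 units in buffalo, and between 3.58 and 12.3 units in the other 12 arrays. GHR-e read 64.4, 58.5 and 66.7 units in buffalo and between 28.9 and 43.7 units in the others. Both thus stood apart in buffalo, while neither GHR-a nor GHR-b had buffalo above the rest. GHR-h read 26.5 to 47.0 units in yak, against 12.0 to 26.2 units in all other arrays. GHR-c was lowest in intact males, at 33.4, 36.9 and 38.1 units, below the other 12 arrays, whose lowest value was 39.5 units in a castrated male. In a fit without the filter, the female minus intact male difference of GHR-c was 0.43 (SE 0.10) on the log2 scale. The buffalo minus cattle differences of GHR-j, GHR-e and GHR-c were 1.18 (SE 0.12), 0.63 (SE 0.07) and 0.22 (SE 0.08). The yak minus cattle difference of GHR-h was 0.58 (SE 0.12).

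The remaining 5 dim GHR probe sets had no group apart from the rest. They were GHR-d (32.1 to 48.6 units over the 15 arrays), GHR-f (24.3 to 35.7), GHR-g (16.8 to 36.8), GHR-i (14.9 to 30.3) and GHR-k (4.85 to 14.8). In GHR-i, yak and buffalo both lay above all cattle arrays, barely so for yak (lowest yak 23.82 units, highest cattle 23.81). Its differences from cattle without the filter were 0.20 (SE 0.07) in yak and 0.28 (SE 0.07) in buffalo on the log2 scale. Different probe sets cannot be ranked by level against each other. Over all 11 GHR probe sets, 2 had buffalo above every other array, 1 had yak above, 1 had intact males below and 7 had no group apart. The 11 do not come from separate sequences. In the annotation GHR-e, GHR-g, GHR-h and GHR-k share 1 source sequence, and GHR-c and GHR-j share another. Every GHR probe set with a group apart is among these. Among all fitted probe sets, yak lay above every other array for 5.3%. Buffalo lay above all cattle arrays for 13.8% and below them for 18.3%, with yak left aside. No share was computed for buffalo above every other array, for intact males below, or for dim probe sets. The count is therefore a description and not a trait of GHR. A further 2 probe sets are listed with both GHR and FBXO4, and were neither named as GHR nor counted above. FBXO4 is a ubiquitin ligase subunit whose gene lies next to GHR on chromosome 20 in the RefSeq annotation. The brighter one, at the 88.8th percentile, had the opposite sign to GHR-a in every comparison. Its female minus intact male difference was -0.41 (SE 0.15) on the log2 scale, with all females below all intact males, and did not pass. Its buffalo minus yak difference was 0.51 (SE 0.14) and passed. The dimmer one, under the filter, had yak above every other array. Which gene each one measures was not tested.

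**Figure D2:**
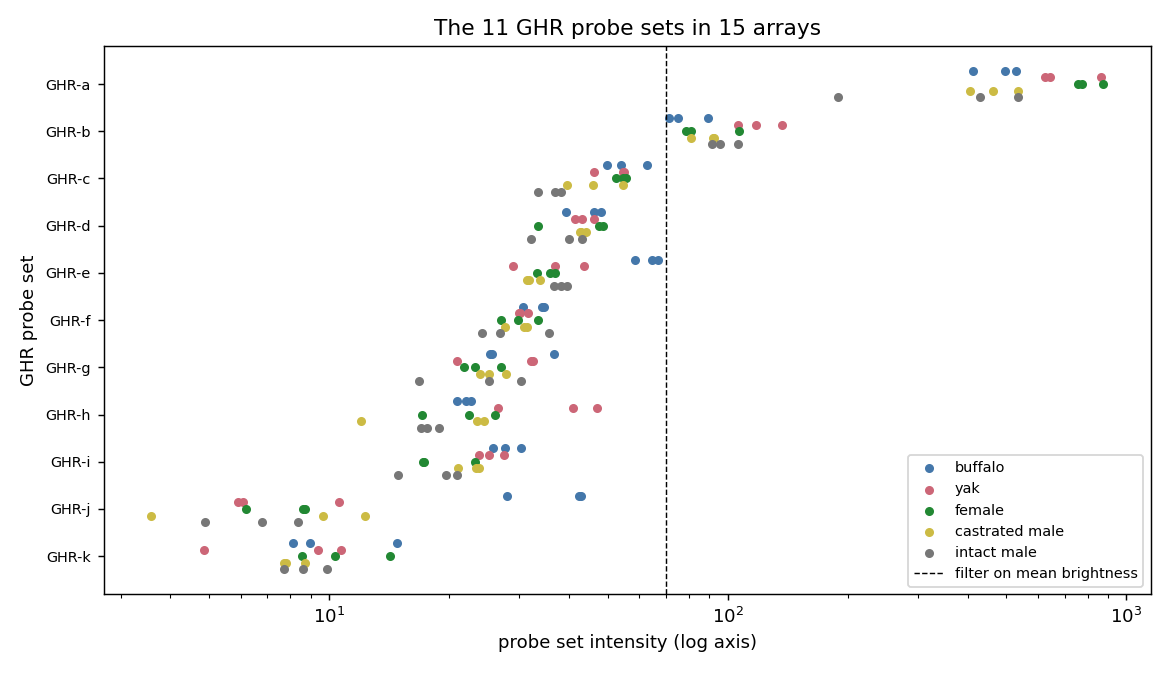
Intensity (log axis) of each of the 11 GHR probe sets in the 15 arrays, coloured by group, ordered from the dimmest at the bottom to the brightest at the top. The dashed line is the filter at 69.8 units, applied to the mean log2 value, and only 2 of the 11 rows pass it.

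STAT5B, one of the transcription factors that carry the growth hormone signal to the nucleus, was measured by 1 probe set, at the 74.6th percentile and paired with a RefSeq mRNA. In the RefSeq annotation its gene lies between GHDC and STAT5A on chromosome 19. The yak arrays read 1060, 910 and 541 units. The buffalo arrays read 182, 103 and 131 units. Each yak value was above each value of the other 12 arrays.

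Among cattle, STAT5B read 412, 168 and 150 units in females, 180, 164 and 257 units in castrated males, and 88.9, 99.0 and 202 units in intact males. The 3 cattle groups overlapped, and the spread within females rested on female 1. By group, STAT5B averaged 139 ± 39.9 units in buffalo, 837 ± 267 in yak, 243 ± 146 in females, 200 ± 50.1 in castrated males and 130 ± 62.6 in intact males (SD, n = 3 each). By mean the order was yak, females, castrated males, buffalo and intact males, and only yak and females, of the neighbours in that order, did not overlap.

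The yak minus cattle difference of STAT5B was 2.11 on the log2 scale (SE 0.31), a 4.31-fold higher signal on the intensity + 16 scale, and the buffalo minus yak difference was -2.44 (SE 0.38). Both passed the fit, which is no independent support, since STAT5B was selected on earlier results from these intensities. With intact males left out of the cattle mean, the yak minus cattle difference was 1.88. The buffalo minus cattle difference was -0.33 (SE 0.31). In cattle the castrated minus intact male difference was 0.62 (SE 0.39), the female minus intact male difference 0.77 (SE 0.39), and the female minus castrated male difference 0.14 (SE 0.39), none of which passed. The last of these turned to -0.29 without female 1, and the female minus intact male difference was 0.34 without it.

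The 3′ to 5′ ratios of the control transcripts, a sign of RNA quality, were higher in all yak arrays than in all cattle arrays for actin. The actin ratio was 1.42 to 1.73 in buffalo and 1.49 to 1.93 in yak, against 1.17 to 1.48 in cattle of all 3 groups. Yak 1 had both the highest ratio, 1.93, and the highest STAT5B value. The GAPDH control gave 1.22 to 1.5 in buffalo and 1.20 to 1.26 in yak, against 1.13 to 1.34 in cattle. The 7 measured adipocyte markers summed to 1102 to 1694 units in yak, against 2176 to 6363 units in cattle. The part of RNA quality and of fat cells in the species differences was not tested. Buffalo ratios overlapped those of yak, while STAT5B in buffalo overlapped that of cattle. Within yak, the actin ratios were 1.93, 1.51 and 1.49 in the order of falling STAT5B. The GAPDH ratios went the other way in that order, at 1.20, 1.24 and 1.26. Buffalo and yak also differ in species and may differ in probe match, so these values do not decide the part of RNA quality.

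**Figure D3:**
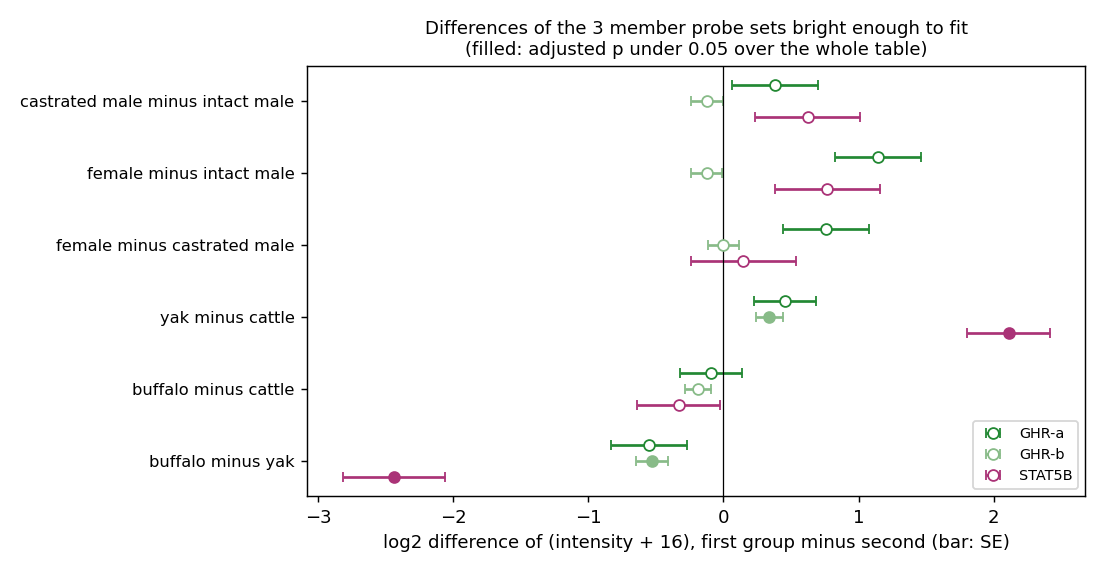
Differences on the log2(intensity + 16) scale, first group minus second, with the SE as a bar, for the 3 member probe sets past the filter in the 6 comparisons. The filled points, those past an adjusted p of 0.05 over all probe sets, are STAT5B at 2.11 and GHR-b at 0.34 in yak minus cattle, and -2.44 and -0.53 in buffalo minus yak.

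The share of all 14409 fitted probe sets that passed gives the background for these counts. In the castrated minus intact male comparison 0 of the 3 fitted member probe sets passed, beside 1.46% of all probe sets. In the female minus intact male comparison 0 of 3 passed, beside 5.5%, and in the female minus castrated male comparison 0 of 3, beside 0.0208%. In the yak minus cattle comparison 2 of 3 passed, beside 29.1%. In the buffalo minus cattle comparison 0 of 3 passed, beside 51.4%, and in the buffalo minus yak comparison 2 of 3, beside 42.2%. The members were chosen with these contrasts known, so the counts are given as they stand.

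Groups that do not overlap were common throughout the table. The 2 groups did not overlap for 0 of the 3 member probe sets between castrated and intact males (24.8% of all probe sets), 1 of 3 between females and intact males (33.1%) and 1 of 3 between females and castrated males (17.5%). They did not overlap for 1 of 3 between yak and cattle (19.3%), 0 of 3 between buffalo and cattle (32%) and 3 of 3 between buffalo and yak (55.2%). All yak arrays lay above all other arrays for 1 of the 3 members, STAT5B, and for 5.3% of all probe sets.

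**Figure D4:**
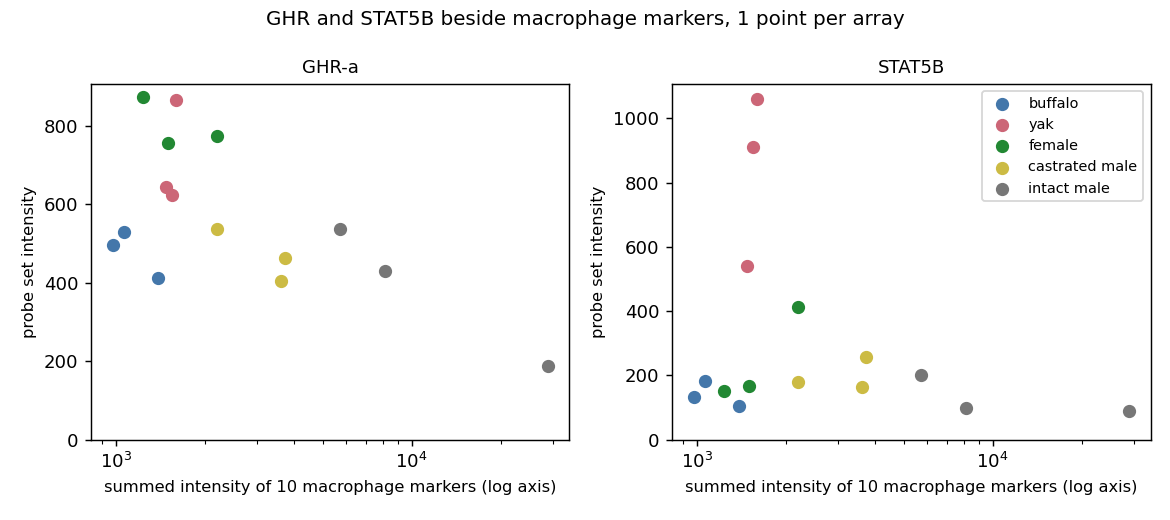
Intensity of GHR (GHR-a, left) and STAT5B (right) against the summed intensity of 10 macrophage markers (log axis), 1 point per array, coloured by group. Intact male 1, at 28823 marker units, has the lowest GHR, 189 units, and the lowest STAT5B, 88.9 units.

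GHR and STAT5B were compared with each other and with the rest of the table as a description. Their log2 values correlated at 0.59 over the 15 arrays, at 0.58 over the 9 cattle arrays and at 0.44 after each group's mean was taken off. The 5 genes most like GHR over the 15 arrays, among 9197 candidates, were ZBTB18 (Pearson r 0.93), FGFR4, a fibroblast growth factor receptor (0.93), CCDC124 (0.92), the forkhead transcription factor FOXO4 (0.90) and ZZEF1 (0.89). Without intact male 1 these were 0.84, 0.84, 0.82, 0.77 and 0.91. The 5 most like STAT5B were MTTP, UXS1, PLXNA2, N4BP1 and MRPL13, with r from 0.93 to 0.94 over the 15 arrays, and from 0.67 to 0.76 within groups. The arrays share species and groups, and no p-value is attached to these correlations.

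The genes around the receptor were read from 7 lists of 84 genes in all, of which 53 had a probe set under their own symbol and 45 passed the filter. The lists were chosen with earlier results of these data known, so the limma p-values given for them are not independent tests. No probe set was listed under JAK2 or SOCS1, which were not analysed here. SOCS2, CISH and the brightest IGF1 probe set did not pass in any of the 6 comparisons. SOCS2, an inhibitor that STAT5 induces, read 392, 272 and 338 units in buffalo and 532, 253 and 172 units in yak. It read 347, 319 and 212 units in females, 272, 341 and 305 in castrated males and 271, 262 and 501 in intact males, so that all 5 groups overlapped.

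CISH, the other inhibitor that STAT5 induces, read 769, 435 and 667 units in buffalo, 895, 473 and 394 in yak, 582, 395 and 599 in females, 698, 618 and 530 in castrated males and 457, 497 and 1221 in intact males. IGF1, the growth factor that growth hormone induces, lay between 311 and 393 units in all 15 arrays by its brightest probe set. Its other fitted probe set was higher in buffalo than in cattle, by 0.27 on the log2 scale (SE 0.07, limma adjusted p = 0.00728). In yak, where STAT5B was highest, the yak minus cattle differences were -0.09 (SE 0.28) for SOCS2, -0.10 (SE 0.30) for CISH and -0.08 (SE 0.09) for the brightest IGF1 probe set on the log2 scale, with limma adjusted p of 0.83, 0.833 and 0.557.

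In castrated against intact males, 0 pathway genes rose and 1 of 45 fell (2.22%), beside 1.46% of all probe sets. It was PIM1, a survival kinase that STAT5 induces, which averaged 73.1 ± 22.1 units in castrated males and 171 ± 24.0 in intact males (log2 difference -1.09, SE 0.22, limma adjusted p = 0.0491). That call was lost without any 1 of the castrated or intact male arrays other than intact male 3, and also with 1 in place of 16 added, without the filter, after quantile normalisation and without a trend. The 3 next by p did not pass: NMI at -0.93, the kinase LYN at -1.56 and SIRPA, a receptor that binds the phosphatases SHP-1 and SHP-2, at -0.82, with limma adjusted p of 0.0549, 0.0642 and 0.115. The median log2 difference of the 45 genes was -0.15, beside -0.00013 for all probe sets.

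In females against intact males, 0 pathway genes rose and 4 of 45 fell (8.89%), beside 5.5% of all probe sets. NMI, a partner protein of STAT and MYC factors, read 71.6, 92.7 and 94.7 units in females and 282, 213 and 166 in intact males (log2 difference -1.19, SE 0.19, limma adjusted p = 0.0182), and its second probe set fell by 1.24. PIM1 read 39.4, 74.5 and 64.5 units in females and 161, 198 and 153 in intact males (-1.33, SE 0.22, limma adjusted p = 0.0187). LYN, a Src family kinase best known from blood cells, read 84.5, 96.8 and 125 units in females and 792, 391 and 248 in intact males (-1.92, SE 0.35, limma adjusted p = 0.0238). MYC, a transcription factor of cell growth, read 69.4, 123 and 185 units in females and 2065, 839 and 396 in intact males (-2.75, SE 0.53, limma adjusted p = 0.0266). For NMI, LYN and MYC the array with the highest value was intact male 1, which also held the highest macrophage sum. The count of calls was 0 without intact male 2 or female 3, 1 without female 1 or female 2, and 13 without intact male 3. The median log2 difference of the 45 genes was -0.24, beside 0.0079 for all probe sets.

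In females against castrated males, 0 of 45 pathway genes passed limma's test, beside 0.0208% of all probe sets. An unadjusted limma p under 0.05 was found for 1 of the 45, and for 1088 of all 14409 fitted probe sets. The 4 of smallest p were IL2RG at -0.33, MYC at -1.16, PIK3CA at 0.49 and CREBBP at 0.33 on the log2 scale, with limma adjusted p from 0.601 to 0.697.

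In yak against cattle, 3 of 45 pathway genes rose and 7 fell (22.2%), beside 29.1% of all probe sets. STAT3, the STAT factor of the interleukin-6 family whose gene lies beside STAT5A, read 364, 439 and 324 units in yak, against 702 ± 92.2 in the 9 cattle arrays (log2 difference -0.88, SE 0.17, limma adjusted p = 0.00246), and its second probe set fell by 0.73. Yak thus had more STAT5B signal and less STAT3 signal than cattle. The survival factor BCL2L1 (-0.43), LYN (-1.09), the hormone ghrelin (GHRL, -0.42), the cyclin CCND1 (-0.55), PIM1 (-0.60) and NMI (-0.43) also fell. PIK3CA, the catalytic subunit of a phosphoinositide kinase, rose by 0.81, PIAS3, an inhibitor of STAT3, by 0.38 and the adhesion kinase PTK2 by 0.27. Those 10 had limma adjusted p from 0.00246 to 0.0466. For SIRPA (-1.22), NCOA1 (-0.50), PRL (-0.36) and GH1 (0.37) a probe set other than the brightest passed. The brightest of these genes did not, so they are not among the 10. With intact males left out of the cattle mean, LYN (-0.51), CCND1 (-0.28), PIM1 (-0.20), NMI (-0.07) and PTK2 (0.20) no longer passed. MYC, named after its values were seen, passed in that fit at 1.67, and with all cattle did not pass, at 0.95. The count of calls was 4 without yak 1 or without yak 2.

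**Figure D5:**
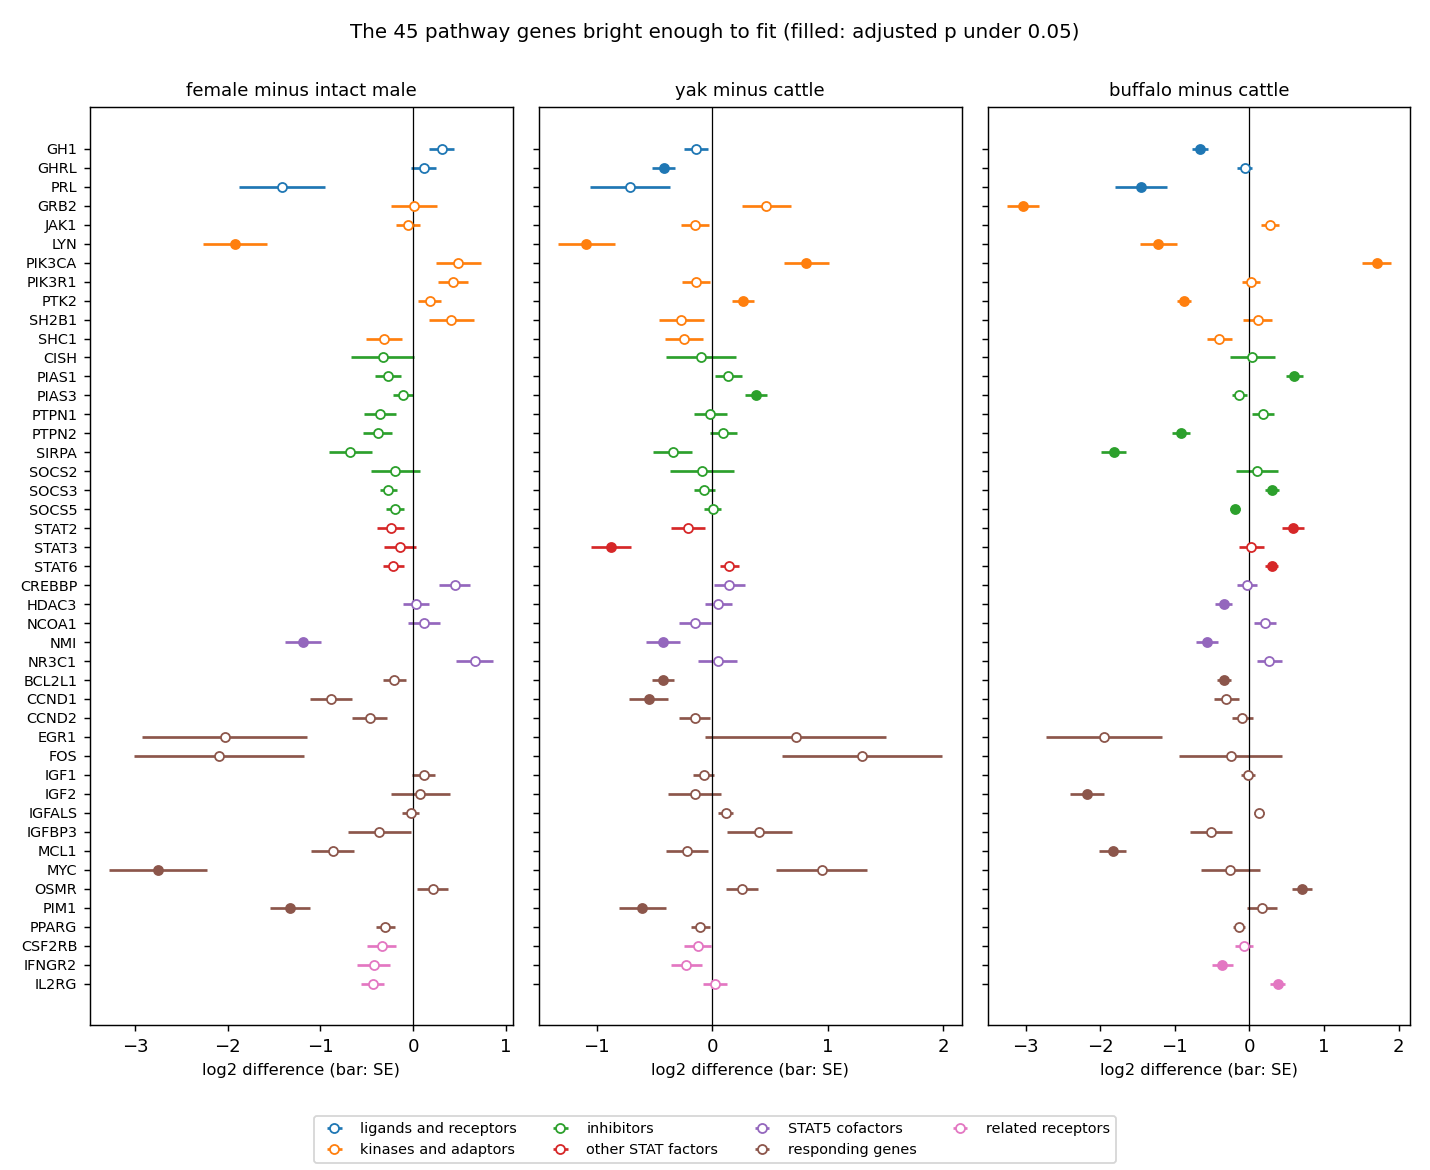
Log2 differences with SE for the 45 pathway genes past the filter, in female minus intact male, yak minus cattle and buffalo minus cattle, coloured by list, filled where the limma adjusted p was under 0.05. The filled points number 4, 10 and 21 of 45 in the 3 panels, and all 4 in the first panel lie below 0.

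In buffalo against cattle, 7 of 45 pathway genes rose and 14 fell (46.7%), beside 51.4% of all probe sets. The adaptor GRB2, which links receptors to the RAS pathway, had the largest difference of them, at 28.5, 51.1 and 63.9 units in buffalo, against 503 ± 108 in cattle (log2 difference -3.04, SE 0.21, limma adjusted p = 1.38e-07). SIRPA (-1.82), the survival factor MCL1 (-1.83), the growth factor IGF2 (-2.18), PTK2 (-0.88), the phosphatase PTPN2 (-0.91), LYN (-1.22), GH1 (-0.66) and PRL (-1.45) fell too. PIK3CA rose by 1.71, with 1.64 for its second probe set, while OSMR, a receptor of the interleukin-6 family, rose by 0.71 and PIAS1 by 0.60. GH1 and PRL encode hormones of the pituitary. Fitted probe sets of a gene did not always move together, and probe sets under the filter were not fitted. The 2 other fitted ones of IGF2 gave -0.91 and 0.13, and those of PRL -0.80 and 0.18. Those of GH1 gave 0.39 and -0.55, both past the test. The other fitted one of PTPN2 gave -0.17, while the 2 others of SIRPA gave -1.57 and -1.69. For NR3C1 (-1.32) and IGF1 (0.27) a probe set other than the brightest passed. The brightest of these genes did not, so they were not counted. With intact males left out of the cattle mean, 4 calls were lost, LYN at -0.64, NMI at -0.21, IFNGR2 at -0.22 and SOCS5 at -0.15, and PIM1 passed at 0.57.

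In buffalo against yak, 10 of 45 pathway genes rose and 11 fell (46.7%), beside 42.2% of all probe sets. GRB2 (-3.50), PTK2 (-1.14), IGF2 (-2.03), MCL1 (-1.61), SIRPA (-1.48), PTPN2 (-1.01), PIAS3 (-0.51) and GH1 (-0.52) fell. STAT2 (0.80), STAT3 (0.90), PIK3CA (0.89) and SOCS3, an inhibitor that STAT3 induces (0.37), rose. Here too the other fitted probe sets of a gene could differ. Those of GH1 gave 0.35 and -0.92 and that of PTPN2 -0.49, all past the test. Those of SIRPA (-0.44 and -0.47) and IGF2 (-0.42 and 0.21) did not pass. For NR3C1 (-1.30), FOS (-2.59), NCOA1 (0.51), SHC1 (0.32) and PRL (-0.95 and 0.54) probe sets other than the brightest passed. The brightest of these genes did not, so they were not counted. The comparisons of buffalo with cattle and with yak share the buffalo arrays.

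The fitted genes were few in each role, and over all probe sets 51.4% passed in buffalo against cattle and 29.1% in yak against cattle. Of 9 fitted inhibitors, 2 rose and 3 fell in buffalo against cattle, and 1 rose and 0 fell in yak against cattle. Of 14 fitted responding genes, 1 rose and 3 fell in buffalo against cattle, and 0 rose and 3 fell in yak against cattle. Of 8 fitted kinases and adaptors, 1 rose and 3 fell in buffalo against cattle, and 2 rose and 1 fell in yak against cattle. Of 3 fitted STAT factors other than STAT5, STAT2 and STAT6 rose in buffalo against cattle and STAT3 fell in yak against cattle.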

How the data were processed

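Total RNA was labelled with biotin and hybridised to Affymetrix bovine arrays, per the labels' protocols. The deposited values are linear intensities per probe set; how the authors summarised and normalised them is not stated by the labels or the table, and the values carry no detection calls. The 15 columns matched the 15 samples by name. The 112 control probe sets were left out. Each value was taken as log2(intensity + 16), and the 14409 probe sets with a mean above the 40th percentile were fitted with limma 3.58.1 (lmFit, then eBayes with a trend; R 4.3.3). Benjamini-Hochberg adjustment ran over all of them, with a threshold of 0.05. Comparisons within cattle used 9 arrays; species comparisons used 15, with cattle as the mean of 3 group means. The fit was tested on simulated data. Where a pathway gene had several probe sets, the brightest was used. Up to 12 passing genes per comparison were named in order of p, or the 4 of smallest p where fewer than 4 passed. The members and lists were chosen with earlier results of these data known. Symbols came from the platform annotation, where 13292 probe sets carry 1 symbol and 86 several; names and neighbouring genes came from the RefSeq table for ARS-UCD2.0. The number of arrays limits the precision.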

Additional observations from a re-analysis of the deposited data

How the results depend on the processing

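The alternatives were 1 or 64 added before log2, no filter, quantile normalisation, no trend, a replicate block, any probe set of a gene, cattle without intact males, and each array left out. The count of pathway genes past the threshold between castrated and intact males, 1, was 0 with 1 added, without the filter, after quantile normalisation and without a trend, and 0 to 6 with an array left out. Between females and intact males it was 0 to 13 with an array left out, and the member count 0 to 1, with 1 also without the filter. For yak minus cattle the pathway count was 6 without intact males and 4 to 12 with an array left out, and the member count 1 to 2. For buffalo minus yak the pathway count was 12 to 21 with an array left out. Without the filter the member counts against cattle and against yak were 4 and 5 for buffalo, since dim GHR probe sets then entered. The replicate block gave pathway counts of 1, 5, 0, 8, 19 and 17 in the 6 comparisons, and changed no member call; same-numbered arrays correlated between -0.33 and 0.15 over 30 pairs, 6 of them over 0.1, so the numbers are not taken as pairs. GHR-a ranged from -0.045 to 0.67 for castrated minus intact male with an array left out, and for buffalo minus cattle it was 0.13 after quantile normalisation and -0.24 to 0.0081 with an array left out. GHR-b for female minus castrated male was 0.00050 with 64 added, 0.0049 after quantile normalisation and -0.12 to 0.067 with an array left out; STAT5B there ranged from -0.29 to 0.40. Over all probe sets, castrated minus intact male calls went from 211 to between 41 and 995 with an array left out, female minus intact male from 792 to between 77 and 2194, yak minus cattle from 4196 to 2281 without yak 1, and buffalo minus cattle from 7400 to 11929 without the filter; the 3 female minus castrated male calls became 0 with 1 added. Fewer arrays and more probe sets tested are part of these alternatives; other causes were not tested.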
